A study of Homo sapiens with 8 samples.

Results

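CD33, SIGLEC1, SIGLEC5, SIGLEC7, SIGLEC9, SIGLEC10 and SIGLEC14 encode Siglecs, and LRRC25 encodes a leucine-rich repeat membrane protein of myeloid cells. These 8 genes, picked by symbol, were followed among the 16726 genes listed for both cell lines. All 8 were listed, and 6 of them passed the filter on low values, which asked for 1 RPKM or more in 2 or more of the 8 libraries; SIGLEC7 and SIGLEC9 did not. RPKM is a level per length of gene model and per depth of library. Because LRRC25 was below 0.5 RPKM in every NB4 library, it passed the filter through MM6 alone. SIGLEC5 and SIGLEC10 passed through NB4 alone. The genes were picked with earlier results of these data in view, including their change under the METTL14 hairpin, so for them that change is described and not tested.

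Siglecs are immunoglobulin-type lectins that bind sialic acids, the acidic sugars that cap glycans on cell surfaces. CD33 and most of its relatives carry inhibitory tyrosine motifs that, once phosphorylated by SRC family kinases, recruit the phosphatases PTPN6 and PTPN11. SIGLEC14 instead pairs with the adaptor TYROBP, which signals through the kinase SYK, and SIGLEC1, also called sialoadhesin or CD169, lacks such motifs and is a known interferon-induced receptor of monocytes and macrophages. LRRC25 has been described as a brake on RIG-I (the product of DDX58) and on NF-kB signalling.

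The study compared human acute myeloid leukaemia cells with and without a hairpin against METTL14, a subunit of the m6A RNA methyltransferase. The 4 groups were MM6 (MonoMac 6) with shM14-#2, MM6 with the non-specific hairpin shNS, NB4 with shM14-#2, and NB4 with shNS, with 2 libraries each. Every group, controls included, carried a lentiviral pLKO.1 construct and went through 2 passages with puromycin at 0.5 µg/mL before poly(A) RNA was sequenced. A single METTL14 hairpin was used, and the labels call both lines acute monocytic leukemia, although NB4 is generally known as a promyelocytic line. The labels do not say whether the duplicates came from separate cultures, so a p-value here covers no more than the spread among the libraries at hand, which may be technical.

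METTL14 checked the labels. It had 6.54 and 6.55 RPKM in MM6 shM14, against 12.5 and 13.4 RPKM in MM6 shNS. In NB4 it had 8.35 and 8.35 RPKM with shM14, against 14.1 and 12.5 RPKM with shNS. The log2 change was -0.88 in MM6 (SE 0.11, limma adjusted p 0.141) and -0.61 in NB4 (SE 0.07, adjusted p 0.0069), so METTL14 was reduced and still expressed. Libraries held 23272126 to 28814911 reads over the listed genes. A monocyte marker list (6 of 6 genes listed, CD14, CSF1R and CD68 among them) summed to 105 to 173 RPKM in MM6 shM14, against 68.7 to 99.4 RPKM in MM6 shNS. The same list summed to 54.3 to 55.5 RPKM in NB4 shM14, against 29.5 to 30.0 RPKM in NB4 shNS. The promyelocyte gene MPO was at 2117 and 2152 RPKM in NB4 shM14 and 2400 and 2490 RPKM in NB4 shNS. In MM6 it lay at 35.1 to 103 RPKM. AZU1 and CTSG of the same list were also lower with shM14 in NB4. PRTN3 went the other way, with 127 and 129 RPKM in NB4 shM14 against 46.1 and 44.1 RPKM in NB4 shNS. The list of 5 genes summed to 2318 to 2666 RPKM in the NB4 libraries and 4368 to 5021 RPKM in those of MM6. Among defining markers of other cells, CD3D, a T cell gene, reached 45.0 to 60.6 RPKM in NB4. It was not the only one, as EPCAM, an epithelial gene, had 9.27 to 10.2 RPKM in NB4. NKG7, of the natural killer cell list, had 30.0 to 55.6 RPKM in NB4 and 128 to 139 RPKM in MM6. Another promyelocyte gene, ELANE, separated the NB4 duplicates, at 0.0387 and 6.45 RPKM with shM14 and 0.0462 and 6.83 RPKM with shNS, against 1599 to 2410 RPKM in MM6.

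The levels of the 8 genes spanned a wide range and their order depended on the line. CD33 was the most abundant in all 4 groups, with group means of 21.5 to 28.2 RPKM and a rank between 2479 and 3330 among the 16726 listed genes. In MM6 shNS the order after CD33 was SIGLEC1 at 11.6 ± 8.66, LRRC25 at 1.36 ± 0.122 and SIGLEC14 at 0.776 ± 0.0583 RPKM (SD, n = 2 each). SIGLEC9, SIGLEC10 and SIGLEC5 followed at 0.171 to 0.384 RPKM with overlapping libraries, and SIGLEC7 had no read. In NB4 shNS, SIGLEC5, SIGLEC14, SIGLEC10 and SIGLEC1 followed CD33, with means of 4.04 ± 0.699, 2.62 ± 0.294, 1.78 ± 0.103 and 1.55 ± 0.0938 RPKM (SD, n = 2 each). The libraries of SIGLEC10 and SIGLEC1 did not overlap, and each neighbouring pair above them was likewise separate. SIGLEC9, SIGLEC7 and LRRC25 lay at 0.171 to 0.247 RPKM in NB4 shNS, and 21 to 26 reads over both libraries set no order among them.

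**Figure D1:**
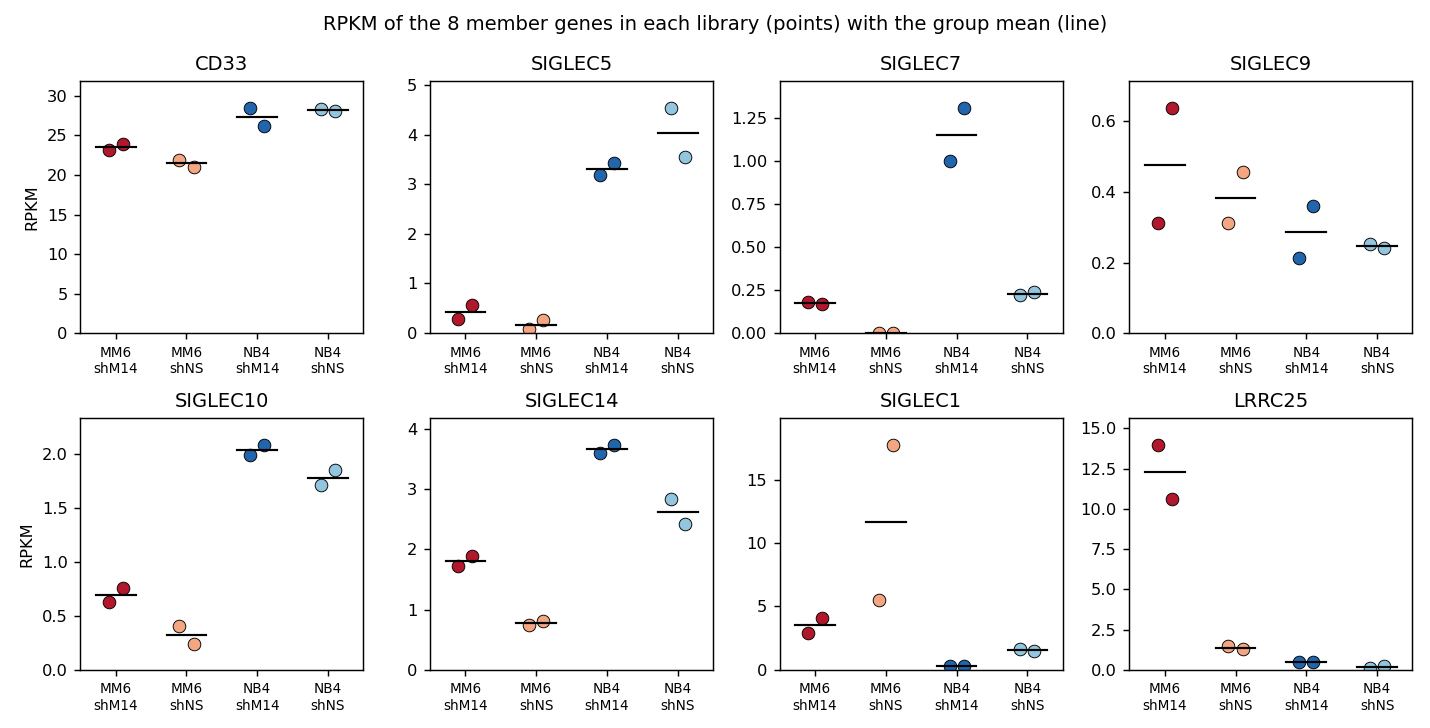
RPKM of each of the 8 genes on a linear axis, 1 panel per gene with its own scale; points are single libraries and lines are group means. CD33 stays between 21.0 and 28.5 RPKM throughout, LRRC25 reaches 10.6 and 14.0 RPKM in MM6 shM14 and no more than 1.45 RPKM in the other groups, and SIGLEC7 has no read in MM6 shNS.

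The control cells of the lines differed past the threshold in the 6 genes fitted, of which LRRC25, SIGLEC5 and SIGLEC10 had entered the fit only through the line where they were high. In MM6 shNS, SIGLEC1 and LRRC25 were higher than in NB4 shNS, and CD33, SIGLEC5, SIGLEC10 and SIGLEC14 were lower. Such calls were common: 70.4% of the 12804 genes tested passed an adjusted p of 0.05, 34.1% higher and 36.2% lower in MM6, so no more is read from 6 of 6. The median log2 difference was -0.70 over these 6 genes and -0.03 over all genes. The difference between the control lines uses the same shNS libraries as the hairpin comparisons, so its values are not independent of them.

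SIGLEC5, an inhibitory receptor of neutrophils and monocytes, had the largest fall among them. It had 0.0832 and 0.259 RPKM in MM6 shNS, against 4.54 and 3.55 RPKM in NB4 shNS, a log2 difference of -2.10 (SE 0.14, limma adjusted p 2.2e-04). Since SIGLEC5 and SIGLEC10 entered the fit through NB4 alone, their adjusted p-values here are a description and not a test. SIGLEC10, a receptor for CD24 and CD52, had 0.403 and 0.242 RPKM in MM6 shNS, against 1.71 and 1.86 RPKM in NB4 shNS (log2 difference -1.08, SE 0.10, adjusted p 0.000643). SIGLEC14 had 0.735 and 0.817 RPKM in MM6 shNS, against 2.83 and 2.41 RPKM in NB4 shNS (log2 difference -1.03, SE 0.10, adjusted p 0.000694). For these 3 genes every MM6 control library was below every NB4 control library, as was the case for 44.8% of all genes tested. CD33, the target of antibody drugs in this leukaemia, differed least, with 21.9 and 21.0 RPKM in MM6 shNS, against 28.4 and 28.1 RPKM in NB4 shNS. Its log2 difference was -0.38 (SE 0.08, adjusted p 0.0117), and the adjusted p became 0.117 and 0.109 without NB4 shNS replicate 1 and replicate 2.

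SIGLEC1 had 5.51 and 17.8 RPKM in MM6 shNS, against 1.61 and 1.48 RPKM in NB4 shNS, a log2 difference of 2.12 (SE 0.49, adjusted p 0.0138). Both MM6 libraries were above both NB4 libraries, but they lay far apart from each other. Without MM6 shNS replicate 2 the difference was 1.36, and without replicate 1 it was 2.88. The adjusted p became 0.0782 and 0.0838 without NB4 shNS replicate 1 and replicate 2. LRRC25 had 1.45 and 1.28 RPKM in MM6 shNS, against 0.124 and 0.217 RPKM in NB4 shNS (log2 difference 1.01, SE 0.10, adjusted p 0.000632). That adjusted p is likewise a description, since LRRC25 entered the fit through MM6 alone. Without the filter on low values, SIGLEC7 was lower in MM6 shNS, with a log2 difference of -0.30 (SE 0.06, adjusted p 0.0169). SIGLEC9 differed by 0.15 (SE 0.08, adjusted p 0.187), which did not pass. Beside the unfiltered calls, 60.1% of all genes passed.

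**Figure D2:**
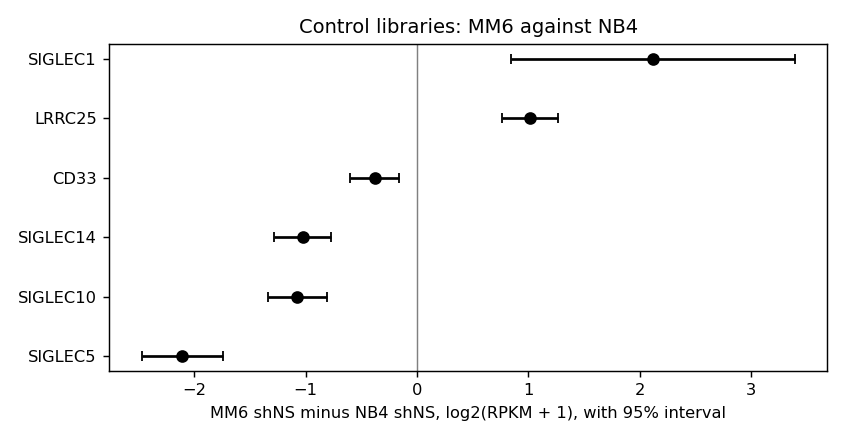
Log2 difference of each gene between MM6 shNS and NB4 shNS on the log2(RPKM + 1) scale, with 95% confidence intervals from limma. SIGLEC1 (2.12) and LRRC25 (1.01) lie above 0, while SIGLEC5 (-2.10), SIGLEC10 (-1.08), SIGLEC14 (-1.03) and CD33 (-0.38) lie below it.

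Under shM14 the 8 genes did not share a direction. LRRC25, SIGLEC14, SIGLEC7 and SIGLEC10 had higher levels with shM14 in every library of both lines, and SIGLEC9 had slightly higher means with overlapping libraries. SIGLEC1 had lower levels in every shM14 library of both lines, and the means of SIGLEC5 and CD33 differed in opposite directions in the 2 lines. In NB4, 3 of the 6 genes passed the threshold, LRRC25 and SIGLEC14 higher and SIGLEC1 lower, where 41.1% of all genes did (18.9% higher, 22.2% lower). Without either NB4 shM14 library that count was 1. In MM6, 0 of the 6 passed with limma, and 0% of all genes did. By the authors' deposited adjusted p, LRRC25, SIGLEC1, SIGLEC7, SIGLEC14 and METTL14 were under 0.05 in MM6. The test behind those values is not given in the sources used here, and the share of all genes under 0.05 was not counted. At an unadjusted p under 0.05 limma called 1855 genes (14.5%) in MM6. After adjustment voom on recovered reads called 38 genes (0.297%), and limma with the filter set within MM6 called 9 (0.0757%), LRRC25 among them in both. The libraries of shM14 and shNS did not overlap for 44.4% of all genes in MM6 and 74.2% in NB4. These counts are a description, because the genes were picked with these changes known. The median log2 change was 0.32 in MM6 and 0.04 in NB4 for the 6 genes, and -0.02 in MM6 and -0.01 in NB4 for all genes. The values are RNA levels of whole cultures, in which fewer cells of a kind and less RNA per cell cannot be told apart. Folds below are ratios of summed reads, scaled to library depth, in shM14 over shNS with exact 95% intervals that cover counting error only.

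LRRC25 had the largest log2 change in MM6 among the 6 genes fitted. It had 14.0 and 10.6 RPKM in MM6 shM14, against 1.45 and 1.28 RPKM in MM6 shNS. With shM14 NB4 had 0.491 and 0.453 RPKM, against 0.124 and 0.217 RPKM with shNS. The groups did not overlap in either line, and the NB4 shM14 level stayed below that of MM6 shNS. Summed reads were 1551 in MM6 shM14 and 163 in MM6 shNS, a fold of 9.16 (7.79 to 10.8), and 60 in NB4 shM14 and 22 in NB4 shNS, a fold of 2.70 (1.63 to 4.62). The log2 change was 2.48 in MM6 (SE 0.17) and 0.33 in NB4 (SE 0.05), both understated by the pseudocount of 1, the second more. With a pseudocount of 0.1 it was 3.07 in MM6 and 1.1 in NB4. For LRRC25 the authors' deposited table holds log2 fold changes of 3.22 in MM6 and 1.46 in NB4. LRRC25 stood at rank 5131 of the listed genes in MM6 shM14, against rank 11203 in MM6 shNS. The summed monocyte markers given above were also higher with shM14 in both lines, as was CD14, at 63.2 and 36.3 RPKM in MM6 shM14 against 14.7 and 12.2 RPKM in MM6 shNS. Not every marker of that list went this way: CD68 had 56.6 and 34.2 RPKM in MM6 shM14, against 66.7 and 42.4 RPKM in MM6 shNS. Their part in the LRRC25 difference was not tested.

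SIGLEC14 and SIGLEC5 are paired receptors, one activating and one inhibitory, with nearly the same ligand-binding end. They are printed together because their sequences decide how far their reads can be told apart. In RefSeq (GRCh38.p14) the 250 bases before each start, read on the minus strand, end in a shared run of 113 bases, shown in capitals, and the windows are 78% identical without gaps. SIGLEC5 lies at chr19:51630402-51630651 and SIGLEC14 at chr19:51646826-51647075.
SIGLEC5: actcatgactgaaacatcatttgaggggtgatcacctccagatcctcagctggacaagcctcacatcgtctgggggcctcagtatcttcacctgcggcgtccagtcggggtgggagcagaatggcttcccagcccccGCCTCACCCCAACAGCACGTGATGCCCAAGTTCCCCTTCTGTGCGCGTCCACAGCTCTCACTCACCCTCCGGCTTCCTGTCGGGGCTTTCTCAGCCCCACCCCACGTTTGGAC
SIGLEC14: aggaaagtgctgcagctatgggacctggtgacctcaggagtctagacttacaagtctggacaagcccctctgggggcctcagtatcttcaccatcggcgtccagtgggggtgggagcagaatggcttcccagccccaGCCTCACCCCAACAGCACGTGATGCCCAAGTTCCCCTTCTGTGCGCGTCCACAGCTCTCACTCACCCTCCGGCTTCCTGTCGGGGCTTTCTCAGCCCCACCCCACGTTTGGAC

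The likeness goes on in the transcripts. Of all 50-base stretches of the annotated SIGLEC5 transcript (GENCODE 29), 29.3% also occur in SIGLEC14, and 32.9% of those of SIGLEC14 occur in SIGLEC5. The longest identical run is 684 bases. Counted against every annotated gene, listed or not, the shared part was 82.2% for SIGLEC5, 33.2% for SIGLEC14, 21.1% for SIGLEC10 and 19.5% for SIGLEC7. With reads of 50 bp, part of the reads of either gene could not be assigned to one of them, so both values are uncertain. Whether the unlisted genes add to this for SIGLEC5 depends on the counting, which is not given in the sources used here. With listed genes alone the other Siglecs shared less, from 0% for SIGLEC1 to 8.43% for SIGLEC10, whose closest listed relative was SIGLEC11. A RefSeq promoter entry was at hand for 7 of the 8 genes. SIGLEC1 had none, so its promoter was not searched for the motifs that follow. The PU.1 motif GAGGAAGT was present in 2.17% and the interferon element ISRE (GAAA, any 2 bases, GAAA) in 3.02% of 35116 such windows, searched on both strands, and neither occurred in the windows of the 7 genes.

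SIGLEC14 had 1.73 and 1.89 RPKM in MM6 shM14, against 0.735 and 0.817 RPKM in MM6 shNS, a fold of 2.31 (1.78 to 3.03) and a log2 change of 0.66 (SE 0.11). NB4 cells had 3.60 and 3.74 RPKM with shM14, against 2.83 and 2.41 RPKM with shNS, a fold of 1.41 (1.21 to 1.64) and a log2 change of 0.37 (SE 0.07). Both lines had every shM14 library above every shNS library. SIGLEC5, by contrast, had 0.292 and 0.562 RPKM in MM6 shM14, against 0.0832 and 0.259 RPKM in MM6 shNS, on 54 and 22 reads. In NB4 it had 3.19 and 3.43 RPKM with shM14, against 4.54 and 3.55 RPKM with shNS, on 440 and 526 reads. Its groups did not overlap in either line, with shM14 higher in MM6 and lower in NB4. The fold was 2.36 (1.42 to 4.08) in MM6 and 0.827 (0.727 to 0.941) in NB4, and the log2 change was 0.28 (SE 0.16) in MM6 and -0.22 (SE 0.11) in NB4. On these values SIGLEC14 had the higher mean of the pair in NB4 shM14, 3.67 RPKM against 3.31 RPKM, and SIGLEC5 had it in NB4 shNS, 4.04 RPKM against 2.62 RPKM.

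CD33, the founding member of the inhibitory family, was the steadiest of the 8. It had 23.2 and 23.9 RPKM in MM6 shM14, against 21.9 and 21.0 RPKM in MM6 shNS, a fold of 1.10 (1.03 to 1.17). The NB4 values were 28.5 and 26.2 RPKM with shM14, against 28.4 and 28.1 RPKM with shNS, a fold of 0.971 (0.916 to 1.03), and the groups overlapped. The log2 change was 0.13 in MM6 (SE 0.11, 95% confidence interval -0.16 to 0.41) and -0.05 in NB4 (SE 0.05, interval -0.20 to 0.10).

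SIGLEC7, an inhibitory receptor best known on natural killer cells, had 0.180 and 0.171 RPKM in MM6 shM14, against 0 and 0 RPKM in MM6 shNS. That is 16 reads over the MM6 shM14 libraries and none over the MM6 shNS libraries, at least 5.14-fold higher against a floor of 3 reads over the group; the exact 95% counting interval of the ratio begins at 3.71. In NB4 it had 0.998 and 1.31 RPKM with shM14, against 0.219 and 0.237 RPKM with shNS, a fold of 4.99 (3.11 to 8.40) on 106 and 21 reads. SIGLEC7 was thus a gene of few reads with separate groups in both lines. SIGLEC10 had 0.625 and 0.754 RPKM in MM6 shM14, against 0.403 and 0.242 RPKM in MM6 shNS, a fold of 2.14 (1.56 to 2.97). In NB4 it had 1.99 and 2.09 RPKM with shM14, against 1.71 and 1.86 RPKM with shNS, a fold of 1.14 (0.981 to 1.32). Annotated antisense genes overlap SIGLEC7 and SIGLEC10, and the strand used in counting is not stated. SIGLEC9, an inhibitory receptor of neutrophils and monocytes, had 0.312 and 0.638 RPKM in MM6 shM14, against 0.312 and 0.456 RPKM in MM6 shNS, and 0.212 and 0.359 RPKM in NB4 shM14, against 0.254 and 0.240 RPKM in NB4 shNS. Its groups overlapped in both lines, with folds of 1.19 (0.761 to 1.86) in MM6 and 1.14 (0.652 to 2.01) in NB4.

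SIGLEC1 was the gene with lower levels under shM14 in both lines. It had 2.89 and 4.12 RPKM in MM6 shM14, against 5.51 and 17.8 RPKM in MM6 shNS. NB4 had 0.298 and 0.300 RPKM with shM14, against 1.61 and 1.48 RPKM with shNS. The groups did not overlap in either line, and the NB4 duplicates were close together, whereas those of MM6 shNS were not. The fold was 0.289 (0.271 to 0.309) in MM6 and 0.194 (0.156 to 0.239) in NB4. The log2 change was -1.31 in MM6 (SE 0.54) and -0.97 in NB4 (SE 0.04). Without MM6 shNS replicate 2 the MM6 change was -0.55, and without MM6 shNS replicate 1 it was -2.07. The authors' deposited table gives log2 fold changes of SIGLEC1 of -1.69 in MM6 and -2.34 in NB4.

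As SIGLEC1 is a known interferon-induced gene, 14 interferon response genes were set beside it. Their summed level was 697.7 and 568.1 RPKM in MM6 shM14, against 768.5 and 1583 RPKM in MM6 shNS. It was 601.1 and 581.0 RPKM in NB4 shM14, against 1688 and 1739 RPKM in NB4 shNS. The MM6 shNS library with the high SIGLEC1 value was also the one with the high sum, and both NB4 shM14 libraries were below both NB4 shNS libraries in sum and in SIGLEC1. Between the lines the sum had another order than SIGLEC1, since NB4 shNS had the highest sums and little SIGLEC1. Within MM6 shM14 the library with the higher sum had less SIGLEC1. Single genes varied: 3 of the 14 were higher and 8 lower in MM6 shNS than in NB4 shNS (34.1% and 36.2% of all genes). MX1, among the higher ones, had 290.9 RPKM in MM6 shNS and 21.2 RPKM in NB4 shNS. This list and those below were chosen with earlier results of these data known, so their counts and adjusted p-values are a description. In NB4 14 of the 14 interferon genes fell past the threshold (22.2% of all genes did), with a median log2 change of -1.75. Examples are IFI44 at 3.46 RPKM in shM14 against 24.5 RPKM in shNS (-2.51, limma adjusted p 0.000934), and OAS3, an antiviral nucleotide synthetase, at 21.8 against 114.8 RPKM (-2.35, adjusted p 0.000934). In MM6 0 of the 14 passed, where 0% of all genes did, and their median was -0.81. The part of this response in the SIGLEC1 values was not tested.

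**Figure D3:**
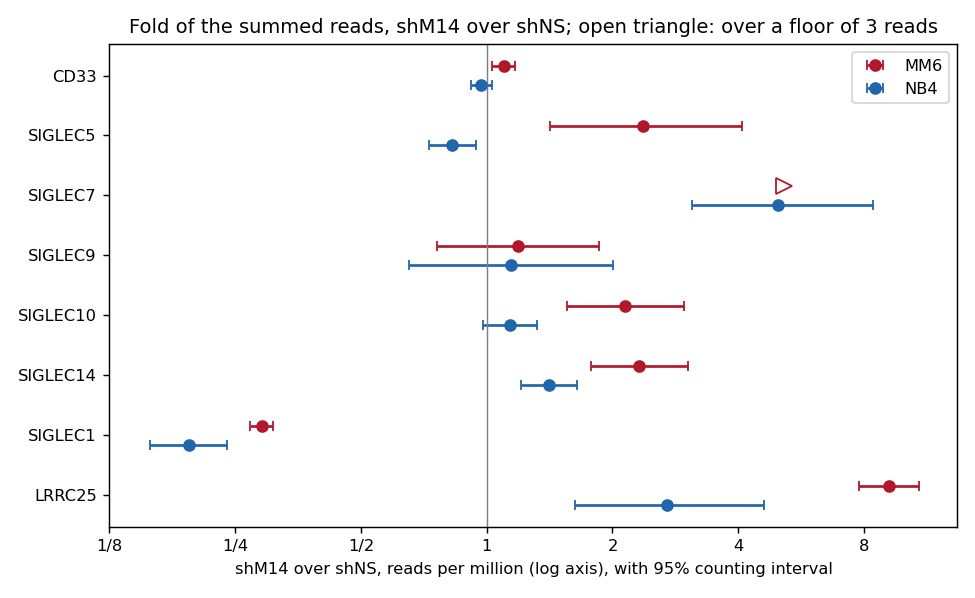
Ratio of depth-scaled summed reads in shM14 over shNS for each of the 8 genes in MM6 and NB4 on a log axis, with exact 95% counting intervals; the open triangle is the ratio of 5.14 over a floor of 3 reads for SIGLEC7 in MM6. LRRC25 in MM6 lies at 9.16, SIGLEC7 in NB4 at 4.99, SIGLEC1 below 1 in both lines (0.289 in MM6 and 0.194 in NB4), and SIGLEC5 on opposite sides of 1.

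The change in MM6 minus that in NB4 was read as a description for the same reason. LRRC25 differed by 2.15 on the log2 scale (SE 0.18) and was the 1 of the 6 genes past the threshold, where 2.92% of all genes were (1.53% higher, 1.39% lower). Leaving out any 1 of the 4 NB4 libraries ended that call. On recovered reads with voom the difference was 1.72 (SE 0.57), also not past the threshold. For SIGLEC5 it was 0.50 (SE 0.20), for SIGLEC14 0.29 (SE 0.13), for SIGLEC10 0.23 (SE 0.13) and for CD33 0.18 (SE 0.11). For SIGLEC1 it was -0.34 (SE 0.61), and its sign turned to 0.55 with a pseudocount of 0.1, to 0.81 with voom and to 0.43 without MM6 shNS replicate 2.

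Of the 8 genes, 6 lie in 1 cluster on chromosome 19, from SIGLEC9 to SIGLEC14, in the gene order of the RefSeq table. The span held 18 listed genes, the 6 Siglecs and 12 others, of which 7 passed the filter on low values. LRRC25 lies elsewhere on chromosome 19, and SIGLEC1 on chromosome 20. The cluster did not move as a block. SIGLEC17P, a transcribed Siglec pseudogene next to CD33 that was picked out after its values were seen, had 3.73 and 3.74 RPKM in NB4 shM14, against 0.860 and 1.04 RPKM in NB4 shNS (log2 change 1.28, SE 0.06, limma adjusted p 0.0021). In MM6 it had 7.04 and 6.76 RPKM with shM14, against 3.41 and 2.69 RPKM with shNS (0.97, adjusted p 0.153). CD33 itself, its direct neighbour in the table, stayed level as given above. NKG7, a cytotoxic granule gene beside SIGLEC10 that was likewise picked out afterwards, had 55.6 and 55.2 RPKM in NB4 shM14, against 30.9 and 30.0 RPKM in NB4 shNS (0.84, adjusted p 0.0021). In MM6 it had 129 and 128 RPKM with shM14, against 139 and 137 RPKM with shNS (-0.10, adjusted p 0.75).

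The nearest listed genes outside the cluster were KLK7 and CTU1 on one side and SPACA6P and FPR1 on the other. FPR1, the formyl peptide receptor of phagocytes, had 1.23 and 0.874 RPKM in MM6 shM14, against 0.0806 and 0.0590 RPKM in MM6 shNS, a fold of 15.4 (7.89 to 34.4). CTU1 had 3.46 and 5.89 RPKM in MM6 shM14, against 3.21 and 6.27 RPKM in MM6 shNS, and these overlapped. The neighbours of LRRC25 were PGPEP1, GDF15, SSBP4 and ISYNA1. ISYNA1, the enzyme of inositol synthesis, had 21.2 and 22.5 RPKM in MM6 shM14, against 33.3 and 32.1 RPKM in MM6 shNS, the opposite direction to LRRC25. GDF15, a secreted growth factor, had 11.5 and 3.58 RPKM in MM6 shM14, against 3.53 and 2.02 RPKM in MM6 shNS (log2 change 1.03, adjusted p 0.47). SSBP4 had 37.3 and 33.8 RPKM in MM6 shM14, against 30.4 and 31.2 RPKM in MM6 shNS (0.20, adjusted p 0.519). Both were higher in every MM6 shM14 library than in the MM6 shNS libraries, GDF15 narrowly, with 3.58 against 3.53 RPKM in the nearest ones. Groups did not overlap, in either direction, for 44.4% of all genes in MM6, and 0% of all genes passed the threshold there. In NB4 PGPEP1, SSBP4 and ISYNA1 fell past the threshold, by log2 changes of -0.49, -0.25 and -0.53.

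**Figure D4:**
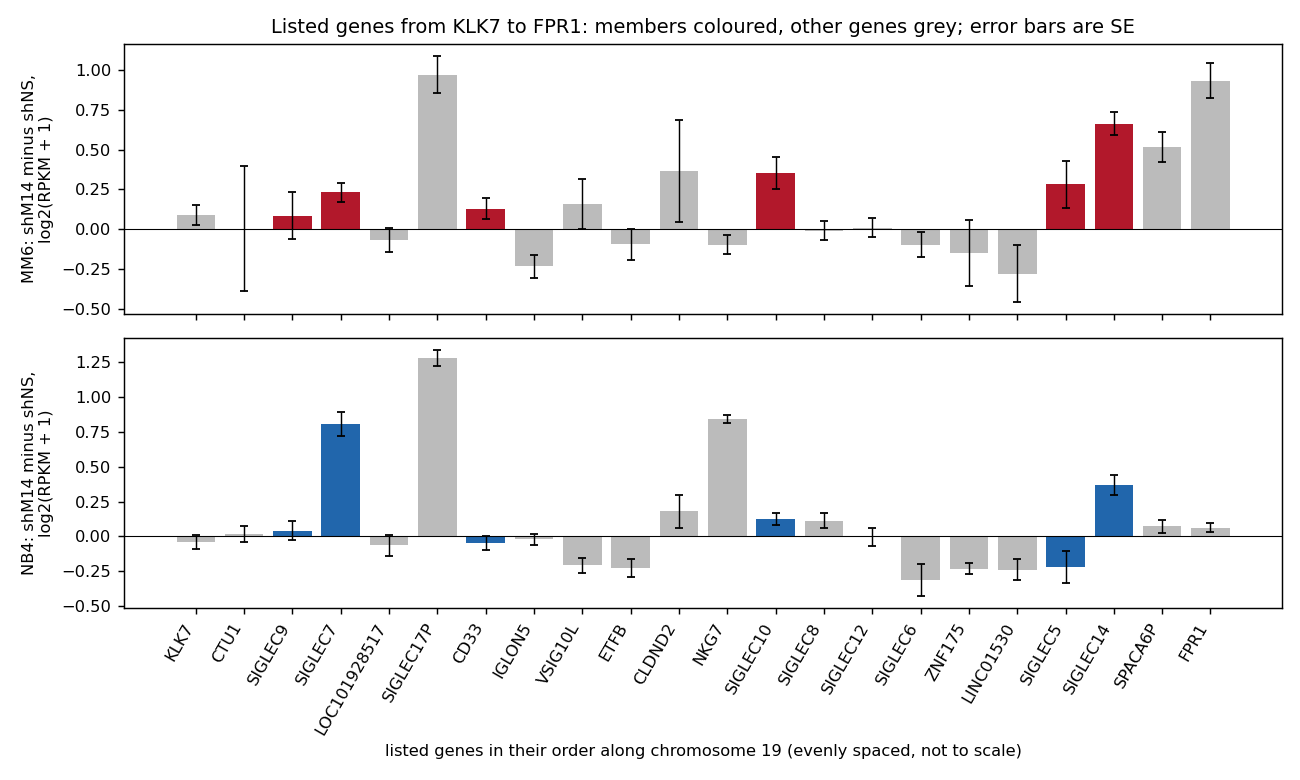
Log2 change under shM14 on the log2(RPKM + 1) scale for the listed genes of the chromosome 19 Siglec cluster and the 2 neighbours on each side, in table order, MM6 above and NB4 below; coloured bars are the Siglecs followed here and error bars are SE of the limma fit without a filter. SIGLEC17P (0.97 in MM6, 1.28 in NB4) and SIGLEC7 (0.23 in MM6, 0.81 in NB4) stand above 0 in both panels, and NKG7 stands at -0.10 in MM6 and 0.84 in NB4.

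Of 9 other Siglec genes, 6 were listed and 1, SIGLEC12, passed the filter. SIGLEC12 had no read in MM6 shNS and 3.43 RPKM in NB4 shNS, and in NB4 it had 3.65 and 3.20 RPKM with shM14, against 3.35 and 3.52 RPKM with shNS. CD22, the B cell Siglec, had 0.553 and 0.556 RPKM in NB4 shM14, against 0.109 and 0.110 RPKM in NB4 shNS, a fold of 5.06 (3.33 to 7.95) and an adjusted p of 0.00631 with limma without the filter, where 29.6% of all genes passed. In MM6 its fold was 6.98 (2.45 to 27.3) on 29 reads with shM14 and 4 with shNS. CD22 thus had separate groups in both lines, at levels below 1 RPKM. The B cell marker CD79A had 0.841 and 0.614 RPKM in NB4 shM14, against 0.976 and 0.721 RPKM in NB4 shNS; its part in the CD22 values was not tested. SIGLEC6 had 0.529 and 0.701 RPKM in NB4 shM14, against 0.838 and 1.18 RPKM in NB4 shNS, a fold of 0.594 (0.450 to 0.780).

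Across the 8 libraries the Siglecs fell into a pattern set largely by the line. Pearson's r of log2(RPKM + 1) was 0.87 to 0.96 between pairs of CD33, SIGLEC5, SIGLEC10 and SIGLEC14, and -0.79 to -0.92 between SIGLEC1 and each of these. The 8 libraries share 2 lines, so these values describe few independent points. Among the genes most like LRRC25 were FAM65B (r = 0.995), MAF (0.993), NEDD9 (0.992) and MSR1 (0.989), over 8 libraries. They were picked for a high r among the 12804 genes tested, so these values are a description. FAM65B, MAF and MSR1 reached 1 RPKM only in MM6 shM14, where LRRC25 was high, and passed the filter through that group alone. MSR1 encodes a macrophage scavenger receptor. Those most like CD33 were MXD3 (0.982), RPS14 (0.981), CD9 (0.980), DCAF5 (0.980) and AFTPH (0.980).

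Of 15 genes that signal downstream of the receptors, 9 rose, 2 fell and 4 did not pass in NB4, with a median log2 change of 0.29 (18.9% of all genes rose). Kinases of the SRC family, which phosphorylate Siglec motifs, were among them: LYN had 37.6 and 36.9 RPKM in shM14 and 19.3 and 18.7 RPKM in shNS (0.93, limma adjusted p 0.00206). SRC had 2.01 RPKM in NB4 shM14 and 0.426 RPKM in NB4 shNS (1.08, adjusted p 0.0021), and SOCS3, which binds inhibitory Siglec motifs, had 1.60 RPKM in shM14 and 0.490 RPKM in shNS (0.80, adjusted p 0.00392; 0.812 with all 8 libraries in 1 model). In MM6 0 of the 15 passed, where 0% of all genes did, and their median was 0.10. The smallest p belonged to the kinase FGR, at 56.4 RPKM in shM14 and 22.3 RPKM in shNS (1.28, limma adjusted p 0.163). SYK had 18.5 RPKM in MM6 shM14 and 31.2 RPKM in MM6 shNS (-0.72, adjusted p 0.181). With all 8 libraries in 1 model both passed (adjusted p 0.00862 for FGR and 0.00789 for SYK). That model takes the spread of each gene from both lines together and called 1311 of the 12804 genes in MM6. SRC was also the 1 gene of the list whose change differed between lines, by -1.27 (adjusted p 0.0247), a call lost without any 1 NB4 library or either MM6 shNS library. Between the control lines 8 of the 15 were higher in MM6, 4 lower and 3 not past the threshold (34.1% of all genes were higher and 36.2% lower), among them FGR (log2 difference 3.83) and SRC (2.51).

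**Figure D5:**
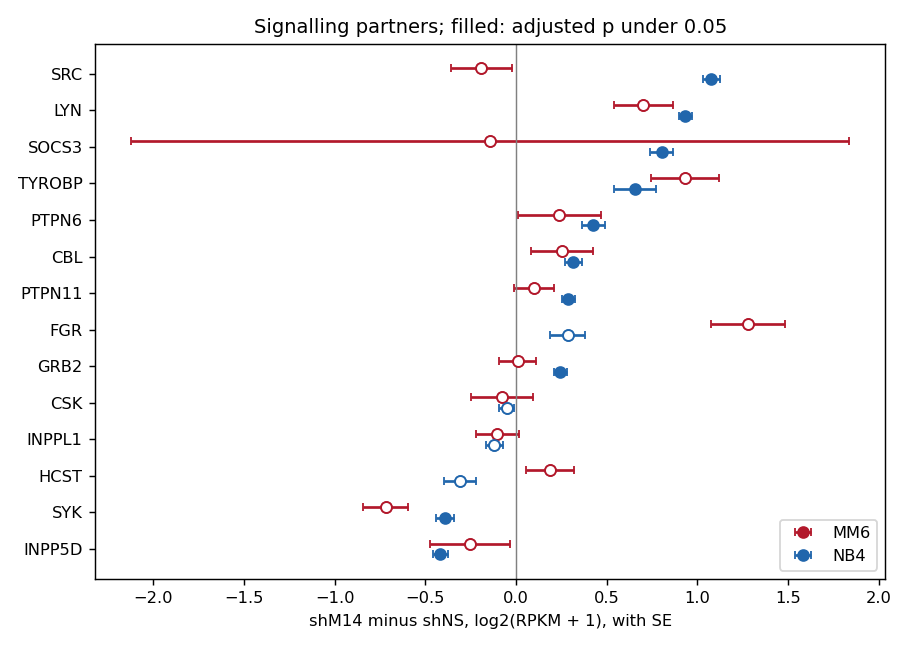
Log2 change under shM14 with its SE, on the log2(RPKM + 1) scale, for 14 of the signalling partners in MM6 and NB4; filled points passed an adjusted p of 0.05. In NB4 8 points are filled above 0 and 2 below 0, and in MM6 none is filled.

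Of 16 genes of sialic acid synthesis and transfer tested, out of 19 listed, 4 rose, 3 fell and 9 did not pass in NB4, with a median of 0.01, beside 18.9% of all genes higher and 22.2% lower. ST6GAL1, which makes the alpha-linked cap that CD22 binds, had 19.9 RPKM in NB4 shM14 and 9.74 RPKM in NB4 shNS (0.96, adjusted p 0.00206). ST3GAL2 rose by 0.69 (adjusted p 0.00455), and ST3GAL4 and ST6GALNAC4 fell, with log2 changes of -0.57 (adjusted p 0.00556) and -0.49 (adjusted p 0.00436). The ST3GAL4 call was lost without either NB4 shM14 library (adjusted p 0.0526 and 0.052). In MM6 0 of the 16 passed, where 0% of all genes did. ST3GAL1 had 14.8 RPKM in MM6 shM14 and 9.10 RPKM in MM6 shNS (0.64, limma adjusted p 0.192). With all 8 libraries in 1 model, which called 1311 of the 12804 genes in MM6, its adjusted p was 0.0152. Among 4 sialidase genes, CTSA, the protective protein of lysosomal sialidase, rose in NB4, with 30.6 RPKM in shM14 and 13.1 RPKM in shNS (1.17, adjusted p 0.0020), and the other 3 did not pass. Of 4 counter-receptor genes, LGALS3BP, a secreted glycoprotein that binds Siglecs, fell to 2.58 RPKM in NB4 shM14, against 15.1 RPKM in NB4 shNS (-2.17, adjusted p 0.00195), and the sialomucin SPN fell by 0.40 on the log2 scale (adjusted p 0.0117), a call lost without either NB4 shM14 library (adjusted p 0.0814 and 0.0752). In MM6 LGALS3BP had 48.1 RPKM in shM14 and 118.9 RPKM in shNS (-1.17, adjusted p 0.357), which did not pass.

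A list of 7 genes covered RIG-I and NF-kB signalling, on which LRRC25 has been described as a brake. Of these, 4 fell and 3 did not pass in NB4, with a median of -0.65, where 22.2% of all genes fell. DDX58, which encodes the viral RNA sensor RIG-I, had 28.9 RPKM in NB4 shM14 and 93.1 RPKM in NB4 shNS (-1.65, adjusted p 0.00122). IFIH1 fell with a log2 change of -0.98, TRIM25 with -0.65 and ISG15 with -1.05 (adjusted p 0.00264, 0.00269 and 0.00303); the ISG15 call was lost with all 8 libraries in 1 model (adjusted p 0.0597). DDX58, IFIH1 and ISG15 are themselves interferon-induced, and ISG15 was also among the interferon genes above. In MM6 0 of the 7 passed, where 0% of all genes did, so that count says nothing particular to these genes. Their median was -0.23. DDX58 had 5.09 RPKM in MM6 shM14 and 10.2 RPKM in MM6 shNS (-0.86, limma adjusted p 0.211). With all 8 libraries in 1 model, which called 1311 of the 12804 genes in MM6, its adjusted p was 0.0194.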

How the data were processed

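Poly(A) RNA of 8 libraries was read with single-end 50 bp reads, per the labels' protocols. For the aligner, counter, genome build and counting strand: not given in the sources used here. Each line had 1 table deposited by the authors. RPKM values per library are used as deposited; the headers do not name the unit, which follows from the numbers. Signal columns are the authors' group means of reads over a size factor per library. The ratio (fold change), its log2 and the p-values were computed by the authors, per the file headers. They were not used beyond the log2 values and the calls in MM6 credited to the authors. RPKM and group means together gave whole reads for all genes (tolerance 0.01).

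log2(RPKM + 1) was fitted with limma 3.58.1 (R 4.3.3), empirical Bayes moderation and Benjamini-Hochberg adjustment over all 12804 genes that reached 1 RPKM in 2 or more libraries. Each line was fitted alone; differences between lines used the shNS libraries or an interaction over all 8. Changes are shM14 minus shNS on this scale, which understates low genes, and SE is moderated. Python 3.11.15 with pandas 2.3.3, scipy 1.17.1 and matplotlib 3.10.9 made summaries and figures.

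The 8 genes and all lists were chosen with earlier results of these data known. Named genes are the 8, METTL14, at most 4 per list and comparison by smallest p, the 5 most alike to LRRC25 and to CD33, and 2 neighbours on each side. CD14, CD68, MPO, AZU1, CTSG, PRTN3, ELANE, CD3D, EPCAM and CD79A come from lists of cell type markers, CD22 and SIGLEC6 from the list of other Siglecs. SIGLEC17P and NKG7 are marked as picked afterwards in the cluster, and NKG7 is also on the natural killer cell marker list. Some genes under the rule are not reported here. Promoters come from RefSeq, transcripts from GENCODE 29. Alternatives were another pseudocount, no filter or a 10 CPM filter, a replicate block, median-of-ratios scaling, voom on recovered reads, all 8 libraries in 1 model, and leaving out each library.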

Additional observations from a re-analysis of the deposited data

Results flagged for a closer look

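The LRRC25 change was larger in MM6 than in NB4 in these libraries, by 2.15 on the log2 scale (SE 0.18), as a description of a gene picked with these values in view that entered the fit through MM6 alone. On recovered reads with voom the difference was 1.72 (SE 0.57) and not past the threshold, nor was it without any 1 NB4 library. SIGLEC5 was higher with shM14 in both MM6 libraries and lower in both NB4 libraries, a difference of 0.50 (SE 0.20), which was not past the threshold either. The nearest libraries of shM14 and shNS had 0.292 and 0.259 RPKM in MM6, and 3.43 and 3.55 RPKM in NB4. Groups did not overlap for 44.4% of all genes in MM6 and 74.2% in NB4. Of the 50-base stretches of SIGLEC5, 82.2% occur in other annotated genes, so its values are uncertain.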

How the results depend on the processing

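Between the control lines 9008 genes passed, and 5780 to 9829 when each library was left out in turn; of the 8, 6 passed, against the 3 left by a 10 CPM filter and 4 to 6 without each library. In NB4 5266 genes and 3 of the 8 followed genes passed, against 1658 and 1 with all 8 libraries in 1 model, and 1217 to 3566 and 1 to 4 without each library. In MM6 0 genes passed, against 9 with a 10 CPM filter, 38 with voom, 1311 with all 8 libraries and 9 with a filter within the libraries compared, an alternative chosen after seeing the data; of the 8 genes these called 1, 1, 2 and 1, LRRC25 in each case. The replicate block called 434 genes and 2 of the 8 in MM6, LRRC25 and SIGLEC14, and METTL14 (adjusted p 0.0371). Same-numbered libraries deviated together in MM6 (r = 0.69) and hardly in NB4 (r = 0.07), and the labels state no pairing, so the numbers were not taken as pairs. For the difference between lines 374 genes passed, against 203 with a pseudocount of 0.1, 207 with voom and 8 to 769 without each library; of the 8, 1 passed, against 0 with voom and 0 to 1 without each library. The sign of the CD33 change in NB4 turned to 0.012 without NB4 shM14 replicate 2 (range without each library -0.11 to 0.012). The sign of the SIGLEC1 difference between lines turned to 0.55 with a pseudocount of 0.1, 0.81 with voom and 0.43 without MM6 shNS replicate 2 (range -1.10 to 0.43); the causes were not tested. Genes under 1 RPKM, such as SIGLEC7 and SIGLEC9, rest on few reads, and 2 libraries a group limit every error given.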
